A study of Mus musculus with 4 samples.

Results

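The miR-23, miR-27 and miR-24 miRNAs are made from a pair of short gene clusters, each of which encodes 1 miRNA of every kind. Their levels were followed in 4 mouse hepatocarcinoma cell lines on an LNA capture array, in which locked nucleic acid probes on glass bind mature miRNAs. Members were taken by exact probe name (mmu-miR-23a, mmu-miR-23b, mmu-miR-24, mmu-miR-27a and mmu-miR-27b, written below without the species prefix), and all 5 were present among the 414 mouse miRNAs of the array. Of these 5, 4 reached the detection minimum of 50 background-subtracted intensity units in at least 1 line, and miR-27a did so in none by the mean of its spots.

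The lines were untreated, with 1 array each. H22 grows in suspension and Hepa1-6 is adherent, and per the labels neither spreads through the lymphatics. H22 gave rise to Hca-P and Hca-F, suspension lines whose ability to reach lymph nodes is lower in Hca-P and higher in Hca-F. Cells of these derived lines were passaged for about a week in the abdomen of 615-mice, recovered from ascites and then cultured in RPMI-1640 with fetal bovine serum, whereas Hepa1-6 came from a cell bank and was kept in DMEM with fetal bovine serum. The labels do not say how H22 was grown. In pairs that include H22 or Hepa1-6, medium and passage in mice thus cannot be told apart from the line. For Hca-P and Hca-F the labels give the same medium and passage. The labels name no clone or pool of animals for any of the lines.

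As background, the 3 hairpins of a cluster are cut from 1 primary transcript, so the miRNAs of a cluster are often expressed together, although each hairpin is also processed at its own rate. miR-23a and miR-23b are reported in human cells to be repressed by MYC and to act on glutaminase, miR-27 is known to restrain adipocyte differentiation through PPARG, and miR-24 is reported in human cells to act on MYC and E2F2, which drive the cell cycle. In mouse fetal liver cells the miR-23b cluster is known to act on Smads of the TGF-beta pathway.

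In RefSeq (GRCm38.p6), Mir23a, Mir27a and Mir24-2 span 404 bases of chromosome 8 on the plus strand, inside no annotated protein-coding gene. Mir23b, Mir27b and Mir24-1 span 792 bases of chromosome 13 on the plus strand, within the protein-coding gene Aopep. The mature sequences of miR-23a, miR-27a, miR-27b and miR-24 were matched in the RefSeq table, and they are shown because they set which probes can tell the clusters apart. The seed, bases 2 to 8, is in capitals:
miR-23a (chr8:84208563-84208583): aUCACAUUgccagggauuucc
miR-27a (chr8:84208727-84208747): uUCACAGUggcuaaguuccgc
miR-27b (chr13:63300760-63300780): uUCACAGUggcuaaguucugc
miR-24 (chr8:84208875-84208896 and chr13:63301251-63301272): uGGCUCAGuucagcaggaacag
miR-27a and miR-27b have the same seed and differ at 1 of 21 bases, C19U (the base of miR-27a, the position from the 5′ end, the base of miR-27b). The seeds of miR-23a and miR-27 share their first 5 bases. Among the 1679 mature miRNAs in the table, none but miR-27a and miR-27b has the seed of miR-27. miR-23a and miR-23b are likewise known as close relatives with a common seed. Probes for sequences this close can bind each other's target, so the readings of miR-27a and miR-27b, and those of miR-23a and miR-23b, are not fully separate.

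miR-24 is the same molecule from either cluster, and its probe sums both sources. The hairpins it is cut from differ outside the mature strand, which is in capitals:
Mir24-2 (chr8:84208815-84208921): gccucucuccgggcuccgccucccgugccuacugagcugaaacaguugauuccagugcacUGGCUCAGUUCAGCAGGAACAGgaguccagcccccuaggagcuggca
Mir24-1 (chr13:63301208-63301275): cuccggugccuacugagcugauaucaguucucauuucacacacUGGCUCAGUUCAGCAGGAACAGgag

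**Figure D1:**
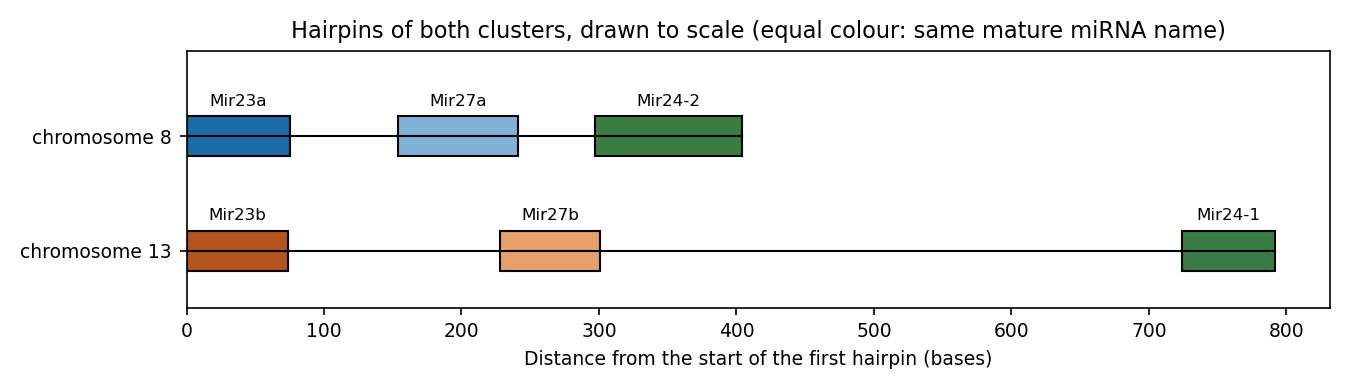
Positions of the 6 hairpins in both clusters, with distance in bases from the start of the first hairpin on the horizontal axis and 1 row per chromosome. The order is miR-23, miR-27, miR-24 in both, over 404 bases on chromosome 8 and 792 bases on chromosome 13.

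Each probe was printed as 4 spots, 1 in each of 4 sectors of the array. A level is the mean of these spots divided by 1 factor per array. The factor is the median of 65 reference probes at 50 units or more in all arrays. A level of 1 is thus the median of these probes on that array. On this scale the minimum of 50 units stands at 0.154 for Hca-F, 0.136 for H22, 0.126 for Hca-P and 0.124 for Hepa1-6. Every ± beside a level is the SD of the 4 spots within an array and says nothing of the spread between cultures. The 85 empty positions had a median intensity of 0 to 0.25 units and a highest mean of 4 spots of 7.75 units in any array. Their brightest single spot was 28 units in Hca-F and 2 to 6 units in the other lines. In Hca-F 3 spots of miR-23a and 2 each of miR-24 and miR-27b were brighter than that empty spot, and no spot of miR-23b or miR-27a was. Across the 4 arrays the median mouse probe read 3.5 to 11 units. The hepatocyte markers were dim, with miR-194 in Hepa1-6 brightest at 39 units: miR-122, the defining miRNA of hepatocytes, and the 3 others listed with it (miR-192, miR-194 and miR-148a) were under 50 units in all 4 lines.

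The H22 spots of mmu-miR-23a lay at 254, 306, 442 and 399 units in the order of the array sectors. The Hca-P spots were 189, 269, 265 and 234 units. Those of Hepa1-6 were 29, 59, 54 and 49 units, and those of Hca-F 30, 59, 79 and 27 units. H22 and Hca-P were thus high and Hepa1-6 and Hca-F low, with no overlap between these pairs of lines. As levels, miR-23a stood at 0.954 ± 0.233 in H22, 0.604 ± 0.0933 in Hca-P, 0.150 ± 0.0764 in Hca-F and 0.118 ± 0.0326 in Hepa1-6. The last 2, whose spots overlap, came from mean intensities of 48.8 and 47.8 units, just under the detection minimum.

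mmu-miR-23b, from the other cluster, had spots of 177, 181, 147 and 182 units in H22, with no spot far from the rest. Hca-P gave 17, 32, 16 and 91 units, so that its mean of 39 units rests in large part on the fourth spot. Hepa1-6 gave 7, 6, 4 and 9 units and Hca-F 2, 6, 2 and 8 units. The level was 0.468 ± 0.0453 in H22 and under the minimum in the other 3 lines, at 0.0984 ± 0.0894 in Hca-P, 0.0161 ± 0.00516 in Hepa1-6 and 0.0139 ± 0.00924 in Hca-F. Every Hca-P spot lay above every spot of Hepa1-6 and of Hca-F, while these last overlapped. As miR-23b was under the minimum in these 3 lines, it was not among the miRNAs compared between them. No share of all probes was counted for such dim readings.

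mmu-miR-27b, encoded next to miR-23b, was also at or above the minimum in H22 only. Its H22 spots were 106, 112, 21 and 137 units, so 1 spot of 4 was far below the others and the level of 0.256 ± 0.138 is uncertain. The Hca-P spots were 36, 46, 37 and 28 units, the Hca-F spots 3, 34, 4 and 36 units and the Hepa1-6 spots 10, 8, 4 and 11 units. With the low spot included, the H22 spots overlapped those of Hca-P and Hca-F and lay above all of Hepa1-6.

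mmu-miR-27a, encoded between miR-23a and miR-24 on chromosome 8, was under the minimum in every line by the mean of its spots. Its Hca-P spots of 22, 64, 60 and 52 units averaged 49.5 units, just under the minimum, whereas their median was 56 units and their mean without the first spot 58.7 units, both above it. H22 gave 16, 30, 42 and 41 units, Hepa1-6 gave 11, 26, 45 and 36 units, and Hca-F 7, 25, 24 and 18 units. The levels of 0.125 ± 0.0479 in Hca-P, 0.0879 ± 0.0330 in H22, 0.0731 ± 0.0361 in Hepa1-6 and 0.0570 ± 0.0255 in Hca-F overlapped in their ranges between every pair of lines. Matched by sector of the array, Hca-P was higher than each of the other lines in 4 of 4 sectors, in units and in levels. These sectors are of 1 array per line, and the share of all probes with this pattern was not counted. The median mouse probe read 11 units in Hca-P and in H22, 7.5 in Hca-F and 3.5 in Hepa1-6. By the mean of its spots, miR-27a was highest in Hca-P, and the other members in H22.

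mmu-miR-24 was at or above the minimum in H22 and Hca-P, as miR-23a was. The H22 spots were 37, 146, 188 and 219 units, the first far below the others, and the Hca-P spots 60, 108, 84 and 81 units. Hepa1-6 gave 21, 18, 21 and 35 units and Hca-F 8, 19, 57 and 29 units. Levels were 0.402 ± 0.217 in H22, 0.210 ± 0.0496 in Hca-P, 0.0871 ± 0.0647 in Hca-F and 0.0588 ± 0.0189 in Hepa1-6. H22 overlapped Hca-P and Hca-F through its first spot, and Hca-P lay above all of Hepa1-6.

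Position on the glass moved with these spot readings. miR-23a, miR-24 and miR-27a were printed in the same block of each sector, and in that block the spot of the first sector was the lowest of 4 for 39 of 52 capture probes at or above the minimum in H22 and for 42 of 47 in Hca-P. Its median deviation from the probe mean was -0.36 on the log2 scale in H22 and -0.42 in Hca-P, against -0.14 in Hepa1-6 and -0.28 in Hca-F. Deviations of spots were also shared between arrays, with r = 0.657 between H22 and Hepa1-6 and 0.661 between Hca-P and Hca-F, and 0.159 to 0.241 for the other pairs. These values run across spots of 298 to 348 probes and describe the arrays. Without the first sector miR-23a averaged 54 units in Hepa1-6 and 55 units in Hca-F, so that it was measured in all 4 lines, and miR-27a reached the minimum in Hca-P.

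**Figure D2:**
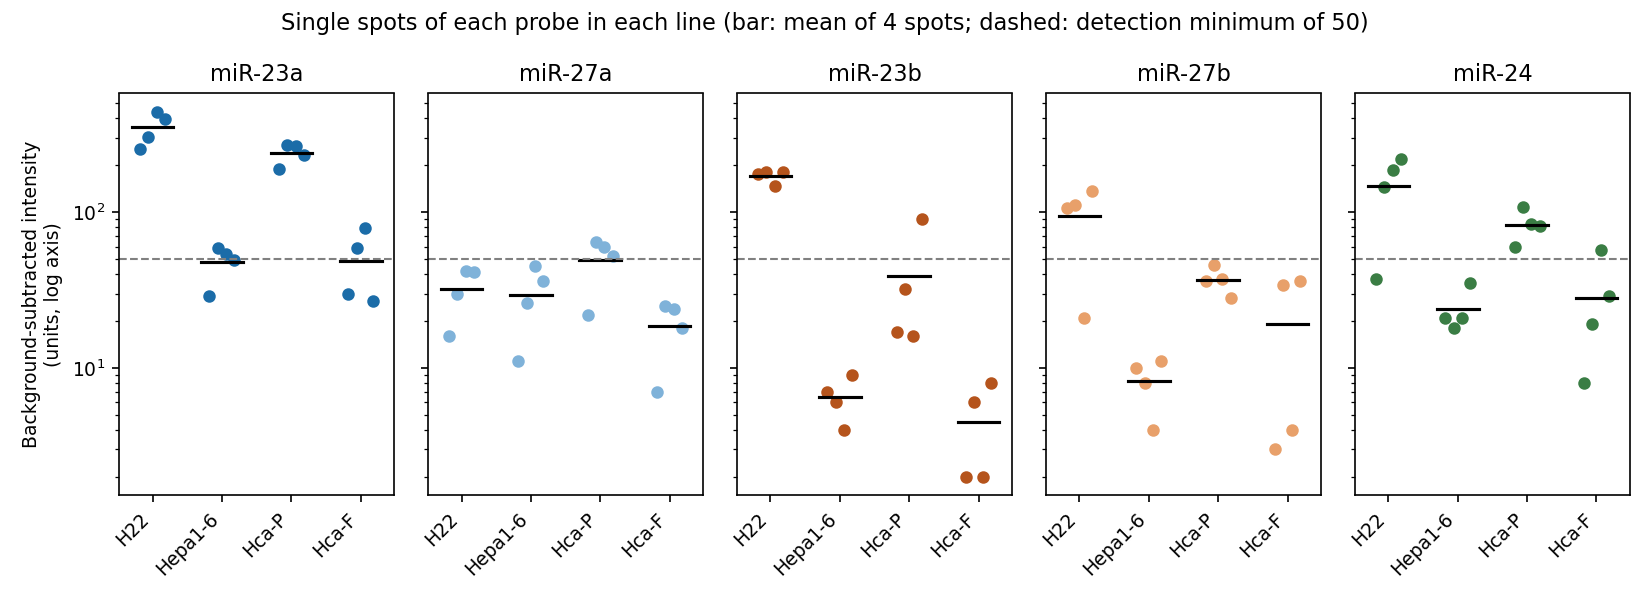
Background-subtracted intensity of every spot (log axis, units) for the 5 members in each of the 4 lines, with the mean of 4 spots as a bar and the detection minimum of 50 units dashed. Spots stand in the order of the array sectors, and all spots of miR-23a in H22 and Hca-P, from 189 to 442 units, lie above all of those in Hepa1-6 and Hca-F, at most 79 units.

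Passenger strands, the hairpin arms that are usually degraded, were read by 2 mouse probes. They were the arms opposite miR-27a and miR-24, in RefSeq named miR-27a-5p, miR-24-2-5p and miR-24-1-5p, and a single probe carries both names of the last pair:
miR-27a-5p (chr8:84208685-84208706): aGGGCUUAgcugcuugugagca
miR-24-2-5p (chr8:84208839-84208860): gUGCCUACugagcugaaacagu
miR-24-1-5p (chr13:63301213-63301235): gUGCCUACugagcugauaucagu
The capitals again mark bases 2 to 8. The miR-24 passenger strands have their first 16 bases in common, and these arms differ by cluster where the miR-24 guide does not. The probe named miR-27a* read 25.2 units in Hepa1-6, 20.8 in Hca-F, 20 in Hca-P and 10.8 in H22. The probe named miR-24-1*/24-2* read 15.8 units in Hca-P, 11.8 in H22, 7 in Hepa1-6 and 4 in Hca-F. Neither reached the minimum in any line. The source of miR-24 could not be read from its passenger strands, since 1 probe is named for the arms of both clusters together. miR-128, whose first 7 bases are the letters of the miR-27 seed, shifted by 1 position, was read by 1 probe at 11 units in Hca-P, 8.75 in H22, 3.75 in Hca-F and 0.25 in Hepa1-6, all under the minimum.

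Lines were then compared in pairs over the miRNAs at or above the minimum in at least 1 line of the pair, and those that differed by 2-fold or more were counted. Where 1 line was under the minimum it was set to 50 units before scaling, so that the fold is a lower bound. A member under the minimum in 1 line entered a pair only because the other line was above it, so the direction of a bound follows from this filter and is no result by itself. Spots were compared as levels, with no floor. With 1 array per line none of these pairs has a replicate check, and no p-value can be given.

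Against H22, also without lymphatic metastasis, Hepa1-6 had 4 members to compare, each under the minimum in Hepa1-6 and above it in H22. They were lower in Hepa1-6 by at least 7.71-fold for miR-23a, at least 3.78-fold for miR-23b, at least 3.25-fold for miR-24 and at least 2.07-fold for miR-27b. Of the 92 miRNAs compared in this pair, 33.7% were 2-fold or more lower in Hepa1-6, and the median log2 fold over all 92 was -0.31. Every spot of these 4 members was lower in Hepa1-6 than every spot in H22, as were the spots of 48.9% of all 92. The scaling set part of this count: after quantile normalization, or with the 75th percentile of mouse probes or of miRNAs detected on every array as the factor, miR-23a and miR-23b were 2-fold or more lower and miR-24 and miR-27b were not. The bound of miR-27b was also short of 2-fold without scaling (-0.91), with all capture probes (-0.96) and with normexp (-0.68), and with a minimum of 100 units miR-23a alone was called.

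Hca-P, of lower metastasis ability, was the line besides H22 in which miR-23a and miR-24 were at or above the minimum. miR-23a was 1.58-fold lower in Hca-P than in H22, a log2 fold of -0.66 with a combined spot SD of 0.42. Taken spot by spot the log2 fold was -0.64 ± 0.28 (SD), lower in 4 of 4 spots. miR-24 was 1.91-fold lower, with a spot-by-spot log2 fold of -0.69 ± 0.95 (SD), lower in 3 of 4 spots, and so within its spot error. The median log2 fold over all 98 miRNAs of this pair was -0.62, and relative to it miR-23a stood at -0.05 and miR-24 at -0.32. Both chromosome 13 members fell under the minimum in Hca-P: miR-23b was at least 3.71-fold lower and miR-27b at least 2.03-fold. These 2 of 4 members stand beside 34.7% of all 98 miRNAs that were 2-fold or more lower. As levels, all spots were lower in Hca-P for miR-23a and miR-23b, as for 50.0% of all 98. In units the miR-23a spots of these lines overlapped. Without the first sector of the array miR-24 was 2-fold or more lower as well (log2 fold -1.20), as it was with the median of spots (-1.29) or with the 75th percentile of miRNAs detected on every array (-1.09). The bound of miR-27b fell short of 2-fold without scaling (-0.91), with all capture probes (-0.73), with normexp (-0.65), with the 75th percentile of mouse probes (-0.53) and after quantile normalization (-0.27).

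For Hca-F, of higher metastasis ability, the same 4 members were under the minimum and entered through H22, so all folds against H22 are bounds. Hca-F was lower by at least 6.19-fold for miR-23a, 3.04-fold for miR-23b, 2.61-fold for miR-24 and 1.66-fold for miR-27b. The 3 members past 2-fold stand beside 17.9% of 95 miRNAs that reached 2-fold lower in Hca-F, and the median over all 95 was -0.09. All spots were lower in Hca-F for miR-23a and miR-23b, as for 32.6% of all 95, while miR-24 and miR-27b overlapped through 1 low spot of H22 each. With the 75th percentile of mouse probes or with normexp the bound of miR-24 was under 2-fold, at -0.82 and -0.85 on the log2 scale. With a minimum of 100 units miR-24 (-0.38) and miR-23b (-0.60) were not called either, and with the median of spots miR-27b was (-1.09). The comparisons of Hepa1-6, Hca-P and Hca-F with H22 share the H22 array, so their likeness is no independent result.

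**Figure D3:**
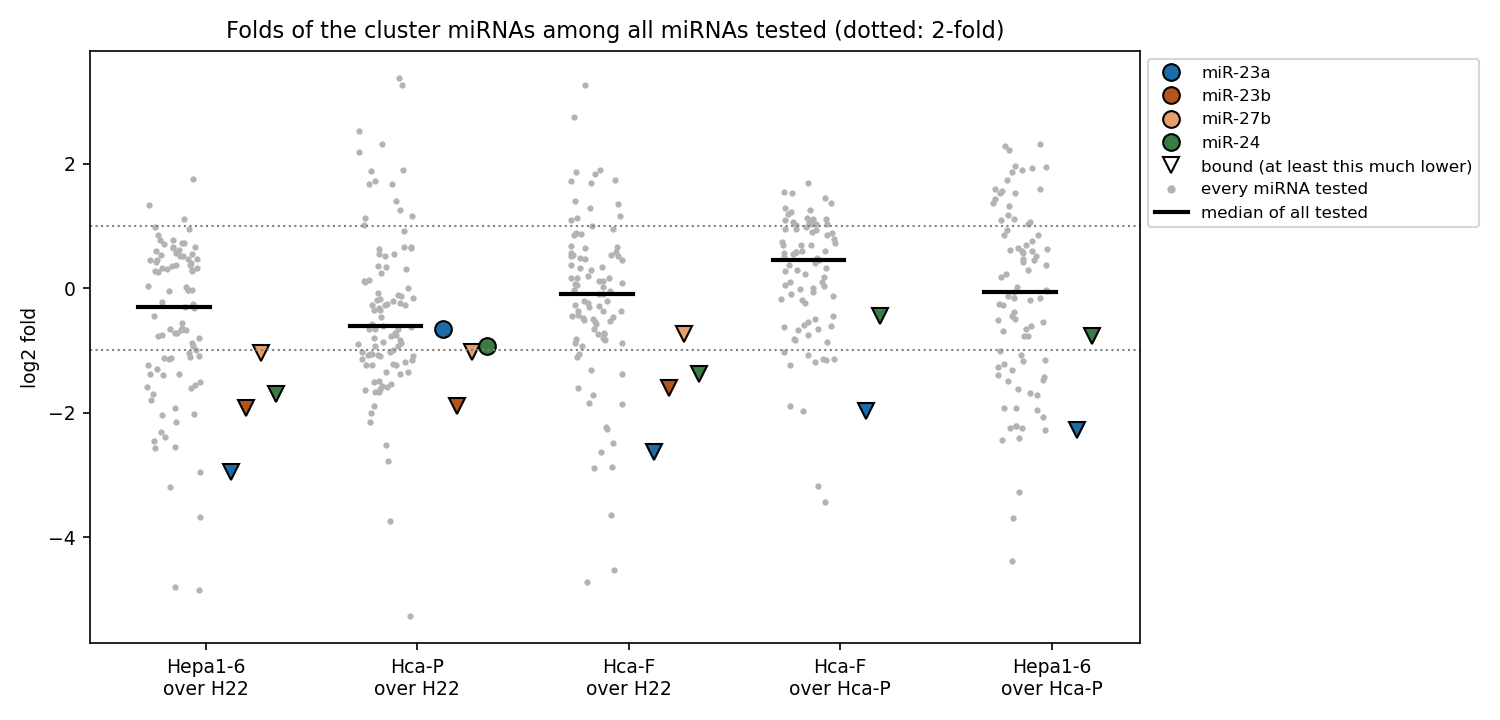
Log2 folds (vertical axis) of the measured members in 5 pairs of lines, as coloured symbols beside every miRNA tested in that pair in grey, with the median of all as a black bar and triangles for lower bounds. miR-23a lies at -2.95, -2.63, -1.97 and -2.29 in the 4 pairs that include Hepa1-6 or Hca-F, and at -0.66, close to the median of -0.62, for Hca-P over H22.

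Between the derived lines, Hca-F had at least 3.92-fold less miR-23a than Hca-P, with all spots lower. miR-24 had a bound of 1.36-fold, and its spots were lower in Hca-F in 4 of 4 sectors, with ranges that did not overlap in units but did as levels. The other 3 members were under the minimum in both lines and give no fold. The call of 1 of 2 members stands beside 12.9% of 85 miRNAs that reached 2-fold lower in Hca-F and 17.6% with all spots lower. This pair had a median of 0.45 over all 85 miRNAs, so miR-23a stood at -2.42 relative to it on the log2 scale. With all capture probes as the reference the median of all was -0.05, and miR-23a was still called. With a minimum of 100 units the bound of miR-23a was -0.97 on the log2 scale, short of 2-fold. With a minimum of 30 units miR-23a was measured in both lines, with a log2 fold of -2.01, as it was without the first sector (-1.92).

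miR-23a was likewise at least 4.88-fold lower in Hepa1-6 than in Hca-P, and miR-24 at least 1.70-fold, with all spots lower for both. Of the 89 miRNAs of this pair 31.5% were 2-fold or more lower in Hepa1-6 and 31.5% had all spots lower, and the median over all was -0.07. In Hca-F and Hepa1-6, the remaining pair, all 5 members were under the minimum and their spots overlapped for each, so no member gave a fold between these lines, which differ in origin, growth form and metastasis ability. With a minimum of 30 units miR-23a was measured in both, with a log2 fold of 0.35 for Hca-F over Hepa1-6, against a median of 0.37 over all miRNAs then compared, and without the first sector it was 0.29 against 0.41.

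**Figure D4:**
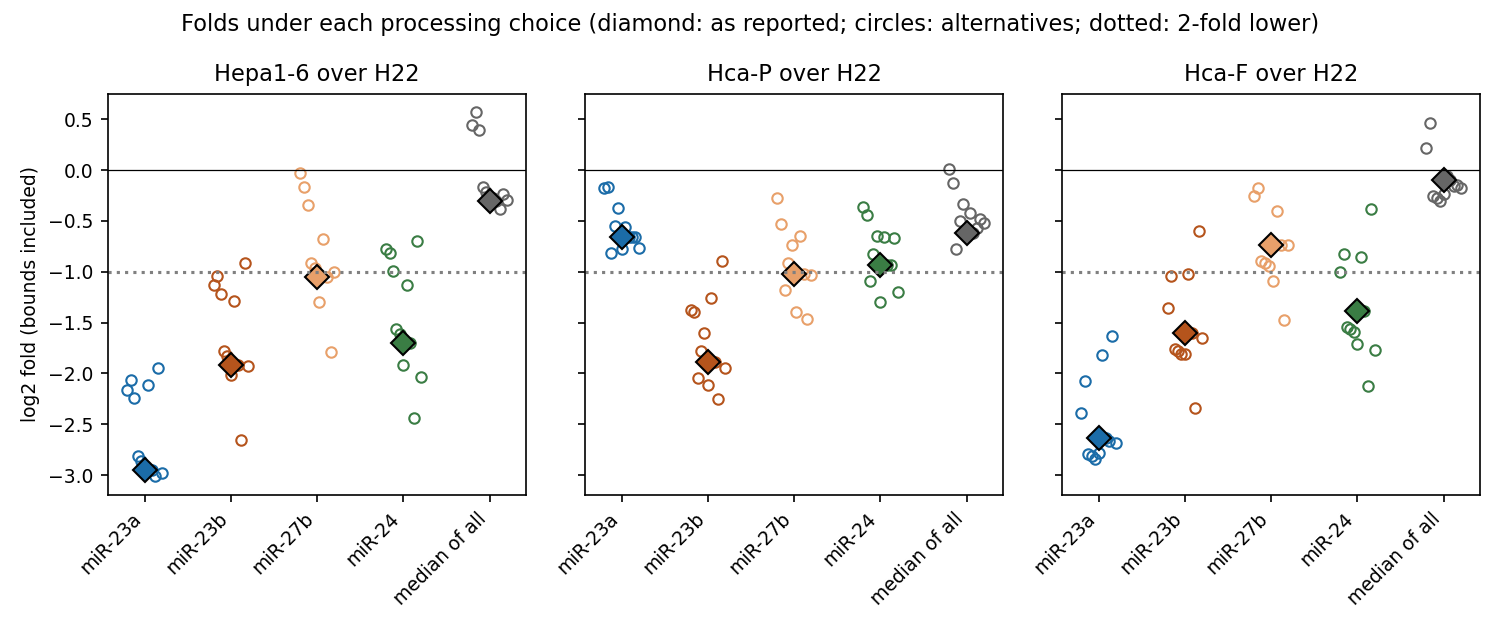
Log2 folds of the 4 measured members and the median of all miRNAs (vertical axis) for Hepa1-6, Hca-P and Hca-F over H22, with the reported value as a diamond and each processing alternative as a circle. The fold of miR-23a, a bound or measured in both lines, lies between -3.01 and -1.95 for Hepa1-6. There the median of all moves from -0.38 to 0.57. Most folds are bounds whose sign the filter sets.

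The lines with and without lymphatic metastasis were compared with limma over the 103 miRNAs at or above the minimum in at least 1 line, with the lines as replicates of their class. No member passed an adjusted p of 0.05, and 1.94% of all 103 did. The log2 difference, with minus without, was -0.79 ± 0.57 (SE) for miR-23b, with a limma adjusted p of 0.651. It was -0.35 ± 0.41 (SE) for miR-27b, -0.31 ± 0.68 (SE) for miR-24 and -0.17 ± 1.04 (SE) for miR-23a, with limma adjusted p-values of 0.839, 0.901 and 0.956. Each class held 1 line high and 1 line low in miR-23a and miR-24. With 1 line left out, its class is a lone array assumed to vary like the other class. Without H22 the difference turned positive for miR-23a (1.30) and miR-24 (0.54), and without Hca-F that of miR-23a was 0.81. For miR-23b and miR-27b every line but H22 was under the minimum. Their value of 0.17 without H22 thus compares only the floors of the arrays and holds no measured level. As H22 is the parent of Hca-P and Hca-F, the lines are not independent, and with no separate cultures named the p-values cover only the differences among these 4 arrays.

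Marker miRNAs of other cell types were read beside these results. Of 6 leukocyte miRNAs, miR-142-5p in Hca-P was the only reading at or above the minimum (59.2 units), and their summed intensity was 139 units in Hca-P, 85 in H22, 83 in Hca-F and 15.8 in Hepa1-6. The sums of H22 and Hca-F differed in make-up, with miR-155 brightest in H22 (43.75 units) and miR-142-5p in Hca-F (23.25 units). These sums are not scaled and come mostly from readings under the minimum. The part of other cells in the member levels was not tested. The endothelial miRNAs miR-126-3p and miR-126-5p, in whose cells these clusters are known to be active, summed to 6.25 to 20 units and were under the minimum in every line. Of 5 mesenchymal miRNAs, miR-214 reached the minimum in H22, Hepa1-6 and Hca-F (70.5, 97.5 and 87.5 units), and none of the 3 erythroid miRNAs did.

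Profiles over the 4 lines were compared for the 2 members at or above the minimum in at least 2 lines, among 80 other miRNAs that met the same condition. The measure was the root mean square difference of log2 levels, each centred on its own mean, with values under the minimum set to the floor. Nearest to miR-23a was let-7i at 0.13, then miR-22 at 0.33 and miR-130a at 0.48. let-7i stood at a level of 1.14 in H22, 0.572 in Hca-P, 0.0932 in Hca-F and 0.0198 in Hepa1-6. let-7i and miR-22 were under the minimum in Hepa1-6 and Hca-F, as miR-23a was, so their nearness rests on 2 measured lines and a shared floor. Nearest to miR-24 were miR-93 at 0.23, miR-711 at 0.27 and let-7c at 0.27. miR-93 was under the minimum in Hepa1-6 and Hca-F, as miR-24 was. miR-711 and let-7c were above it in all 4 lines, so in Hepa1-6 and Hca-F their measured levels were compared with the floor of miR-24. miR-24 was at rank 5 from miR-23a, at 0.70, whereas miR-23a was at rank 25 from miR-24. Both were set to the floor in Hepa1-6 and Hca-F. These ranks thus also rest on 2 measured lines and a floor, and do not settle how alike the cluster partners are.

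**Figure D5:**
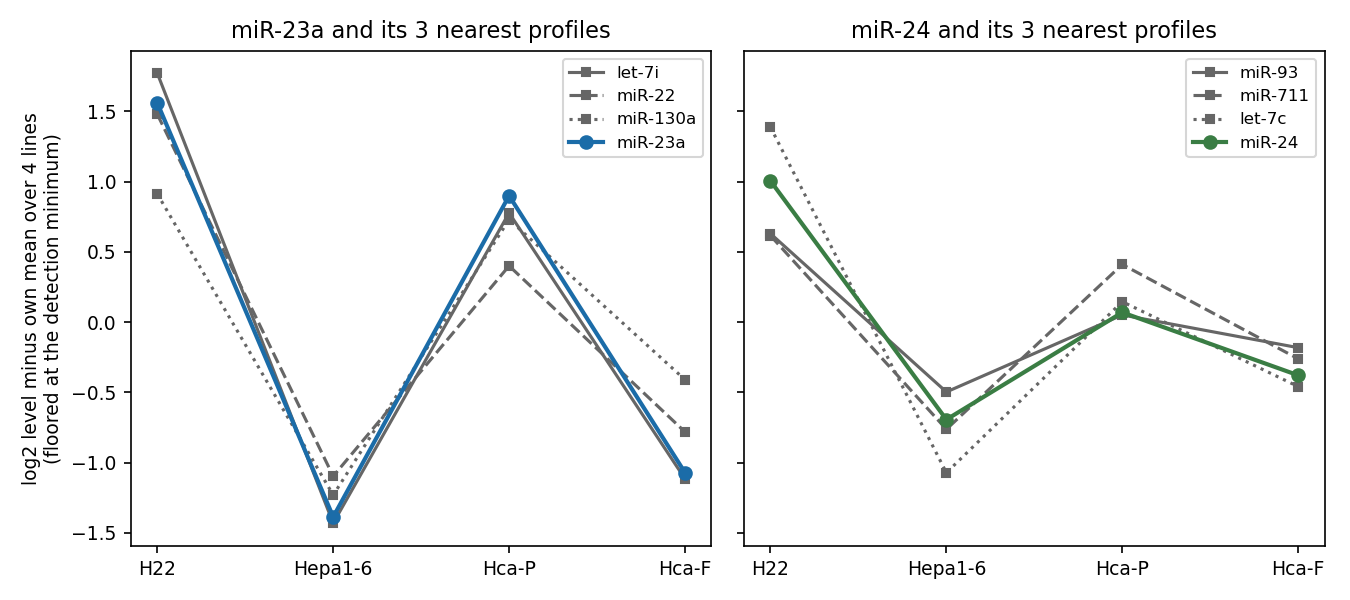
Log2 levels centred on each miRNA's own mean over the 4 lines (vertical axis), for miR-23a and miR-24 in colour and the 3 nearest other miRNAs in grey, with lines drawn between points only to guide the eye. miR-23a and let-7i both stand high in H22 and Hca-P, at 1.56 and 1.77 in H22, and at the floor in Hepa1-6 and Hca-F.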

How the data were processed

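Per the labels, total RNA was extracted with TRIzol, labelled with Hy3, hybridised to miRCURY arrays and scanned on a GenePix 4000B. The authors deposited the intensity of each spot before and after subtraction of a local background (31 to 56 units), the mean of 4 spots per probe, and a normalized intensity. The recomputed spot means equalled the deposited ones, and the normalized values equalled these means over the median of 65 mouse and miRPlus probes at 50 units or more in all arrays. The value table held the same normalized intensity.

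Mouse names with 2 probes kept the brighter. Values under 50 units were set to 50 before scaling. limma 3.58.1 (R 4.3.3; lmFit, eBayes with trend, Benjamini-Hochberg) compared metastasis classes. The fold and limma steps were tested on simulated data. Named were all members, passenger strands, miR-128, marker miRNAs and, per member measured in 2 lines or more, the 3 nearest profiles. Members and lists were chosen with earlier results of these data known. Alternatives covered scaling, background correction, spot summary, detection minimum, fold threshold and left-out arrays. The number of arrays limits the precision.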

Additional observations from a re-analysis of the deposited data

How the results depend on the processing

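Each line has 1 array, and 14 of 20 member readings lay under the detection minimum, so most folds are bounds that move with it and whose direction the filter sets. The folds measured in both lines, miR-23a and miR-24 in Hca-P over H22, ranged from -0.82 to -0.17 and from -1.29 to -0.36. No paired analysis was possible because each line has 1 array, so the lines compared share only 1 replicate number. Levels without scaling or after quantile normalization are in other units and were not compared. Leaving out the first sector was chosen after seeing the data. Where a value moved, the cause was not tested.

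In Hepa1-6 over H22 the 4 members called became 2 after quantile normalization and with either 75th percentile, and 1 with a minimum of 100 units. The 31 miRNAs of all called lower became 17 with quantile normalization, 14 by the mouse-probe 75th percentile, 15 with that of miRNAs detected in all arrays, 20 with a minimum of 100 units and 18 at 3-fold. The 3 called higher became 23, 37 and 33 under these first 3 scalings.

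In Hca-P over H22 the 2 members became 1 with quantile normalization, the 75th percentile of mouse probes, no scaling, all capture probes, normexp or 3-fold, 0 with a minimum of 100 units and 4 at 1.5-fold. Of all, 34 lower became 18, 16 and 19 with quantile normalization, the 75th percentile of mouse probes and all capture probes, where 15 higher became 22, 23 and 16. The lower count was 20 with normexp, 22 with a minimum of 100 units and 11 at 3-fold.

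In Hca-F over H22 the 3 members became 1 with a minimum of 100 units. Of all, 17 lower became 11 with that minimum and 28 at 1.5-fold. The split of 17 lower and 14 higher was 13 against 31 for the mouse-probe 75th percentile, 21 and 11 without scaling and 24 and 11 with all capture probes.

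In Hca-F over Hca-P the 1 member became 2 with a minimum of 30 units and 0 with 100. Of all, 11 lower became 21 with all capture probes, 5 with normexp, 4 with a minimum of 100 units or at 3-fold and 20 at 1.5-fold. The split of 11 lower and 20 higher was 12 and 12 with quantile normalization, 15 and 6 without scaling and 21 and 3 with all capture probes.

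In Hepa1-6 over Hca-P the 1 member became 2 with a minimum of 30 units or at 1.5-fold. Of all, 28 lower became 17 at 3-fold. The split of 28 lower and 22 higher was 14 and 41 with the 75th percentile of miRNAs detected in all arrays and 21 and 30 with that of mouse probes.

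In the limma comparison of metastasis classes 2 of 103 miRNAs were called. That count was 0 without the intensity trend, with quantile normalization, the 75th percentile of mouse probes, no scaling, all capture probes or a minimum of 100 units, where 6 to 12 had an unadjusted p under 0.05, and 1 with the other 75th percentile, the median of spots or no first sector. With an array left out, 1 class is a lone array assumed to vary like the other, and the count ranged from 0 to 2, and it was 0 when H22, Hca-F or Hca-P was the array left out (6 each at an unadjusted p under 0.05). The log2 differences then ranged from -1.65 to 1.30 for miR-23a, -1.75 to 0.17 for miR-23b, -1.16 to 0.54 for miR-24 and -0.88 to 0.17 for miR-27b. The highest values came without H22 and the lowest without Hepa1-6, and miR-23a was also positive without Hca-F (0.81). The 0.17 of miR-23b and miR-27b without H22 compares only the floors of the arrays. No member passed under the alternatives that keep all 4 arrays. Among these alternatives, the count of all miRNAs was 3 with normexp or with a minimum of 30 units.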
